A study of Drosophila melanogaster with 54 samples.

Results

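The genes described here are 10 early zygotic genes of Drosophila melanogaster, known from cellularization, the step that turns the syncytial blastoderm into an epithelium, and from the cell cycle pause and the gastrulation around it. They are halo, Z600, nullo, bnk, slam, Traf4, Bro, zld, T48 and fog, taken by name from the 17558 genes of each of 4 count tables, and all 10 were found in every table. In the blastoderm table zld is listed under its synonym vfl. Their levels were followed from the blastoderm to late embryos and a cell line, and between mof RNA interference (RNAi) and its control.

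The study measured polyA RNA in 54 libraries of 14 groups, made from embryos in which the mother's mof RNA was targeted and from S2 (Dmel-2) cells, a cultured embryonic line with blood cell character, given mof dsRNA. mof encodes a histone acetyltransferase that works in the male X dosage compensation complex and in other complexes of both sexes. Control embryos came from mat-a-tubGal4/controlRNAi mothers and mof embryos from mat-a-tubGal4/mofRNAi mothers, each mated with siblings, so that all embryo groups share the driver, which is active in the female germline. The RNAi stock and mof depletion cannot be told apart in them. At the blastoderm stage (St5, nuclear cycle 14) there were 4 male and 2 female libraries for control and as many for mof, and at gastrulation (St7) 7 male and 6 female control libraries against 6 male and 4 female mof libraries, each from 1 embryo. Embryos of 14 to 16 h (St15) were in pools of 25 that also carried Sxl-GFP and were sorted by it, with 3 libraries per group except 4 for mof females. S2 cells were kept for 3 days at 25 °C with dsRNA, at 10 ug for each 1000000 cells, giving 3 libraries for GFP dsRNA and 3 for mof dsRNA, and nothing in the labels says that these were separate cultures.

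As background, the egg runs the early divisions on RNA and protein from the mother, and the embryo's own genome is switched on in waves while maternal RNA is cleared. The earliest embryonic genes tend to be short and to lack introns, and the transcription factor encoded by zld opens chromatin for many of them. During the long interphase of cycle 14 the membrane grows inward between the nuclei, held by an actin and myosin network, and cells then fold inward at gastrulation under the secreted signal encoded by fog and the membrane protein encoded by T48.

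In dm6 coordinates 5 of the 10 genes are a single exon. halo (FBgn0001174) lies on chromosome 2L from 1517533 to 1518148 on the minus strand. Z600 (FBgn0004052) lies on 3L from 15509061 to 15509513, nullo (FBgn0004143) on X from 7049476 to 7050321, bnk (FBgn0004389) on 3R from 31193362 to 31194389 and Bro (FBgn0013755) on 3L from 1647869 to 1648612, all on the plus strand. The genes with introns are slam (FBgn0043854, 2L, 6372388 to 6377284), Traf4 (FBgn0026319, 2L, 4361925 to 4380716), T48 (FBgn0004359, 3R, 26881734 to 26910997), zld (FBgn0259789, X, 19766465 to 19783548) and fog (FBgn0000719, X, 22824317 to 22855194), of which zld and fog are on the minus strand. Merged exons run from 0.453 kb in Z600 to 10.605 kb in zld. Z600 overlaps gdl and gdl-ORF39 on its own strand, where counting by strand would not keep their reads apart. nullo overlaps CG12541, bnk overlaps mesh, T48 overlaps Ets97D, fog overlaps CG42346 and Traf4 overlaps the noncoding lncRNA:CR45363, each on the opposite strand. fog also overlaps noncoding RNAs such as mir-2491 on its own strand. No source used here says whether counting was by strand. The counts of Z600, nullo, bnk, T48, fog and Traf4 may therefore hold reads of the neighbour.

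Depth, in units of 1000000 counts, ran from 28.28 to 41.51 per library at St5, 5.5 to 10.02 at St7, 19.02 to 38.08 at St15 and 20.49 to 38.77 in S2 cells. Levels are counts per 1000000 counted (CPM). mof stood below the controls in every library of every embryo mof group, but in S2 cells it was 72.7, 60.9 and 50.1 CPM after mof dsRNA against 71.8, 65.9 and 70.5 after GFP dsRNA, so that the groups overlapped. The St5 libraries labelled mof male 1 and 2 had 0 counts over a list of 12 genes on the Y, against 15 to 86 in the 6 others labelled male, and their Sxl, the female switch gene, stood at 469 and 400.0 CPM against at most 84.1 in the other St5 libraries. The 4 St5 libraries labelled female held at most 4 Y-linked counts. Their Sxl, at 8.77 to 34.5 CPM, overlapped that of control males (31.55 to 84.1 CPM), so Sxl did not mark them as female. At St7 Sxl was 545 to 899 CPM in females and 114.5 to 219 CPM in males. The transgene marker w stood at 92.5 to 133 CPM in all St5 mof libraries except the one labelled mof male 1, which had 3.67 CPM. At St7 and St15 the w levels of mof and control libraries overlapped in each sex, so there w did not mark the mof groups. The genotype field of the St5 control females names the mof stock, but their mof level was 677 and 531 CPM. The library labelled mof female 3 at St15 held 39 Y-linked counts, where the other St15 females held 0 to 2 and the St15 males 149 to 235.

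In which order did these RNAs appear and go? Age within cycle 14 is not recorded, so the 12 St5 libraries were set side by side by their own RNA, using 9 maternal genes such as bcd and gnu and 12 patterning genes of the late blastoderm such as eve and en. The 4 libraries labelled female held the most maternal RNA, with a mean log2 CPM of 6.34 to 6.69 over the 9 genes, against 2.63 to 3.87 in the 8 labelled male. They also held the least patterning RNA, at 0.572 and 0.76 in the control females, 1.75 and 2.97 in the mof females and 3.62 to 5.49 in the male libraries. Sex as labelled, position in this order and the share of maternal RNA therefore cannot be told apart at St5. The libraries labelled mof male 1 and 2, which lacked Y-linked counts, lay with the other male libraries, at 3.63 and 3.87 for maternal RNA. Their patterning RNA was at 5.1 and 4.38. Male and female below follow the labels. In bulk RNA, fewer cells with a transcript and less of it per cell cannot be told apart either.

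**Figure D1:**
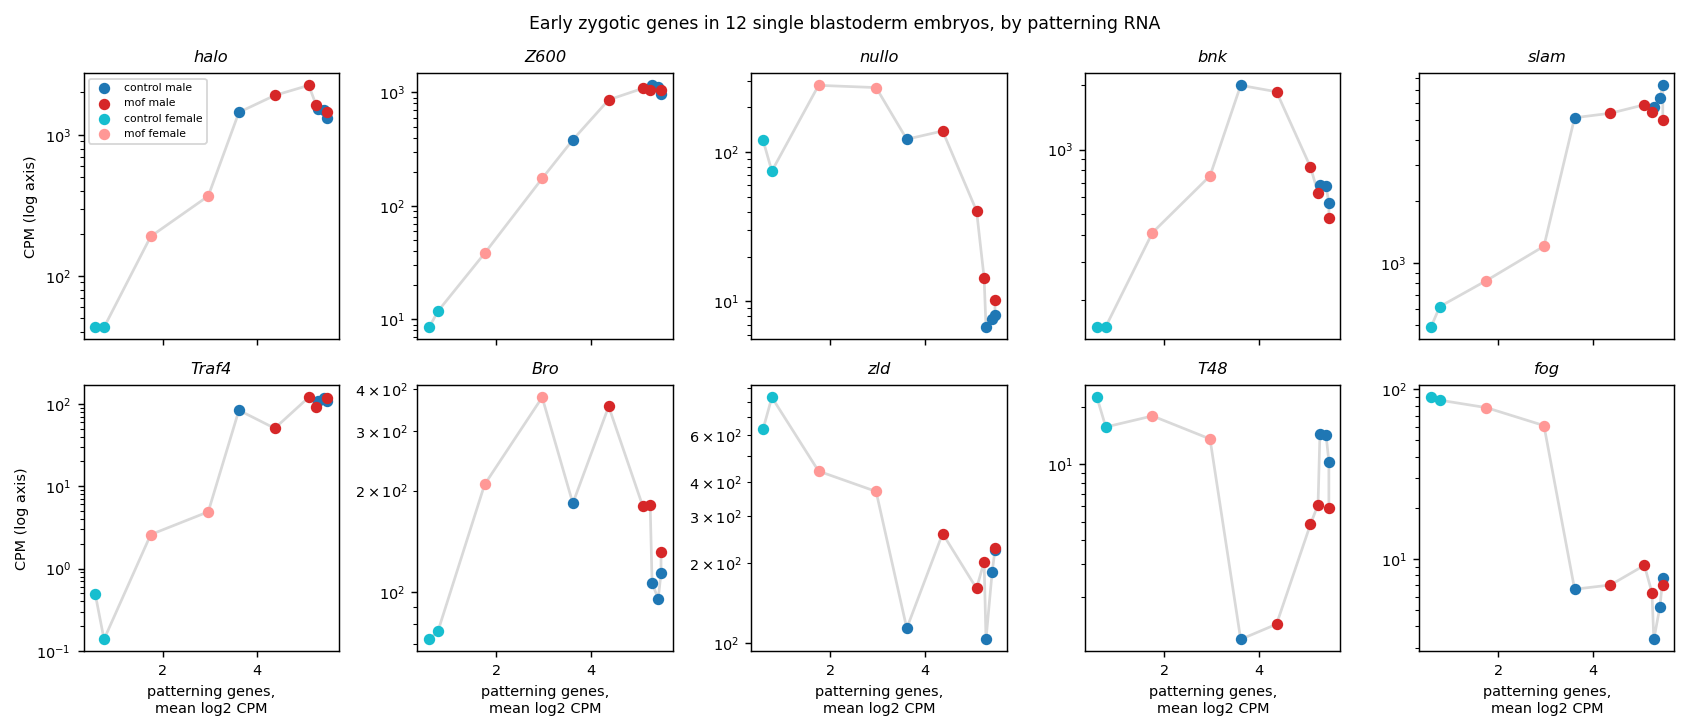
Level of each gene (CPM, log axis) in the 12 St5 libraries against the mean log2 CPM of 12 patterning genes, with groups as colours and a line joining libraries in that order. nullo was highest in the 2 mof females, Bro in mof female 2 and mof male 2, bnk in control male 3 and mof male 2, and fog in the 2 control females, while slam was at 5001 CPM or more in all 8 male libraries.

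Along this order the members differed in where they were highest. nullo was highest in the mof females, Bro in mof female 2 and the library labelled mof male 2, and bnk in control male 3 and the library labelled mof male 2. halo, Z600, slam and Traf4 were high in all 8 male libraries, and zld and fog were highest in the 4 libraries with the most maternal RNA. By the maternal order, the highest library was number 2 of 12 for nullo, 3 for Bro, 7 for bnk, 6 for halo and Traf4, 10 for slam and 12 for Z600. By the patterning order the same libraries were number 3, 4, 5, 7, 11 and 9 respectively, and zld peaked at number 4 and 2 and fog and T48 at number 1 in each order. The largest span between libraries was that of Traf4, 868.5-fold, and the smallest that of Bro, 5.248-fold.

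slam encodes a protein of the furrow tip that directs membrane growth. Its level was 615 and 487 CPM in control females 1 and 2, 823 and 1210 CPM in mof females 1 and 2, 5790, 6373, 5109 and 7347 CPM in control males 1 to 4, and 5908, 5374, 5422 and 5001 CPM in mof males 1 to 4. All 8 libraries labelled male, mof males 1 and 2 without Y-linked counts among them, lay above all 4 labelled female. The male groups overlapped. At St7 slam was at 1.02 to 4.41 CPM in all 23 libraries, 2395-fold lower in control males than at St5.

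nullo encodes a small protein that stabilises the furrow's actin network and early junctions. It stood at 74.6 and 120 CPM in control females, 280 and 271 CPM in mof females, 6.71, 7.60, 122 and 8.14 CPM in control males 1 to 4, and 40.4, 139, 14.4 and 10.2 CPM in mof males 1 to 4. Control male 3 and the library labelled mof male 2 were high among the males, and these 2 hold the least patterning RNA of the 8. The median was 195.5 CPM over the female libraries and 12.3 over the male ones. At St7 nullo was at 0 to 0.571 CPM, with 42 counts in all over 23 libraries, and in St15 males it had 0 counts, at least 818-fold below St5 control males with a floor of 3 counts over the group.

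bnk encodes a small basic protein that holds back contraction of the network until the furrows are deep. Its values were 150.5 and 149 CPM in control females, 411 and 754 CPM in mof females, 686, 679, 1986 and 561 CPM in control males 1 to 4, and 828.6, 1854, 628 and 480 CPM in mof males 1 to 4. The same 2 libraries that were high for nullo among males were the highest for bnk. By St7 it was at 0 to 1.43 CPM with no more than 11 counts in any library, 2208.5-fold lower in control males than at St5. At St15 it had 1 count over 13 libraries.

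halo encodes a factor that steers lipid droplet transport along microtubules. It stood at 43.2 and 43.3 CPM in control females, 191 and 369 CPM in mof females, 1519, 1490, 1445 and 1316 CPM in control males and 2244, 1904, 1620 and 1458 CPM in mof males, each from replicate 1 up. Control males 1 to 4 lay within 1316 and 1519 CPM, a narrower span than those of nullo and bnk. All 23 St7 libraries held 33.6 to 75.0 CPM of halo, 29.7-fold below St5 in control males. St7 and St5 control females overlapped. At St15, 9 of 13 libraries had 0 counts.

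Z600, also called fruehstart, encodes an inhibitor of mitosis that binds cyclins. It was at 11.8 and 8.51 CPM in control females, 38.3 and 175 CPM in mof females, 1155, 1107, 382 and 966 CPM in control males 1 to 4, and 1085, 861, 1057 and 1055 CPM in mof males 1 to 4. Control male 3, with less patterning RNA than the other males, was lowest among them. At St7 it stood at 4.72 to 18.3 CPM, 76.4-fold below St5 in control males, and at St15 it had 2 counts over 13 libraries.

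Traf4 encodes an adaptor of the tumour necrosis factor receptor family's signalling that also acts on myosin and junctions in the folding mesoderm. It was near absent from control females (0.138 and 0.498 CPM), stood at 2.59 and 4.89 CPM in mof females, and was at 108, 119, 83.6 and 110 CPM in control males 1 to 4 and 120, 50.5, 92.0 and 116.5 CPM in mof males 1 to 4. In control males it was higher at St7 than at St5, unlike the single-exon genes in these males. The St15 control male mean was 92.4 CPM, and those libraries overlapped the St5 control males. St7 libraries held 174 to 306 CPM, with a control male mean of 206 against 105 at St5 and no overlap, and St15 libraries 66.6 to 98.5 CPM.

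Bro encodes the partner of Runt domain transcription factors. It stood at 76.4 and 72.2 CPM in control females, 209 and 379 CPM in mof females, 106, 95.3, 183 and 114 CPM in control males and 180, 356, 181 and 131 CPM in mof males, each from replicate 1 up. The highest values were those of mof female 2 and the library labelled mof male 2. St7 libraries held 1.09 to 16.3 CPM, a 14.94-fold range, and St15 libraries 0.0525 to 0.489 CPM.

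zld was the member with the highest level in the control females, per library and not per length, at 832 and 631.5 CPM. It was at 441 and 370 CPM in mof females, 104, 184, 114 and 223 CPM in control males 1 to 4, and 161, 257.5, 202 and 228 CPM in mof males 1 to 4. All female libraries lay above all male libraries. At St7 zld ranged from 22.9 CPM in control male 1 to 400.2 CPM in control female 4, a 17.52-fold span, the widest of the members with counts in every St7 library. St15 pools lay much closer, at 130.5 to 206 CPM.

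fog was at a low level in the St5 male libraries, unlike all other embryo libraries. It stood at 86.5 and 89.9 CPM in control females and 78.1 and 61.2 CPM in mof females, then at 3.36, 5.23, 6.63 and 7.77 CPM in control males and 9.17, 7.02, 6.33 and 6.995 CPM in mof males. The female and male libraries did not overlap. At St7 it was at 53.4 to 132 CPM, 13.2-fold above St5 in control males, and control females at St5 and St7 overlapped. At St15 the 13 pools held 70.9 to 95.8 CPM.

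T48 was the lowest member of St5 by CPM in several male libraries. Control females held 15.7 and 22.5 CPM and mof females 18.0 and 13.6 CPM, while control males 1 to 4 held 14.4, 14.3, 1.20 and 10.3 CPM and mof males 1 to 4 held 4.84, 1.44, 6.13 and 5.87 CPM. Control male 3 and the library labelled mof male 2, where bnk was highest, had the least T48. The 23 St7 libraries held 18.9 to 42.7 CPM, above every St5 library but control female 2. St15 libraries held 26.1 to 48.7 CPM.

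**Figure D2:**
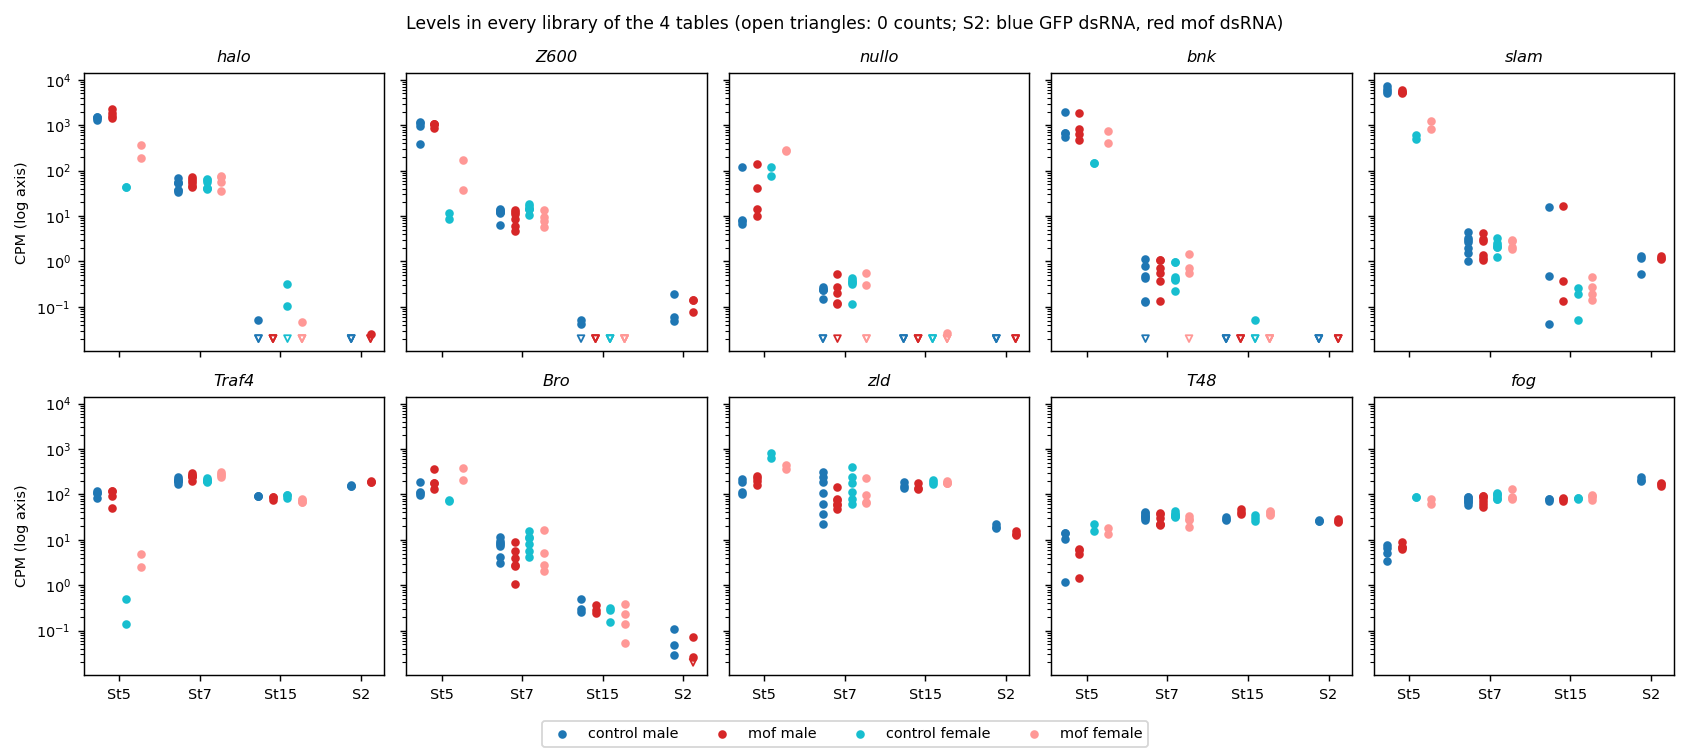
Level of each gene in every library (CPM, log axis) by table and group, with open triangles for 0 counts. nullo and bnk were below 1.5 CPM from St7 on and halo and Z600 were lost between St7 and St15, while Traf4, zld, T48 and fog stayed above 18 CPM in every St7 and St15 library.

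Between genes, levels can be compared only per length. In CPM per kb of merged exon, St5 control males held 2342 ± 145 for halo, 1993 ± 786 for Z600, 1495 ± 230 for slam and 951.5 ± 656 for bnk (mean ± SD, n = 4), and each neighbouring pair in this order overlapped in single libraries. fog, at 0.876 ± 0.290, and T48, at 4.10 ± 2.53, were at the other end. In the St5 control females bnk, at 146 ± 0.877, and slam, at 134 ± 21.9, led and overlapped (n = 2), and Traf4, at 0.0985 ± 0.0788, was last. By St7 halo, at 78.9 ± 21.1, and Traf4, at 63.8 ± 7.11, were highest in control males (n = 7) and overlapped, and slam (0.624 ± 0.279), bnk (0.431 ± 0.393) and nullo (0.192 ± 0.139) were lowest.

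Of all other St5 genes with a mean log2 CPM of at least 2, those whose profile over the 12 libraries was most like the members' mean profile were Elba3 (Pearson r = 0.953), CG34163 (0.949), Spc25 (0.927), CG6885 (0.923) and CG14014 (0.922). The members themselves ranged from 0.866 for Bro and 0.841 for bnk to -0.529 for zld and T48. halo and Z600 (r = 0.982), slam and Traf4 (0.971) and zld and fog (0.905) moved together over these libraries, which share the difference in maternal RNA described above. At St7, Z600 and Bro (r = 0.735) and Z600 and T48 (0.738) moved together and Z600 and Traf4 in opposite directions (-0.746) over 23 libraries, which include the mof groups.

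How did libraries labelled male and female differ among the controls? Tests here and below are the quasi-likelihood test of edgeR, with p-values adjusted by the Benjamini-Hochberg method over all tested genes of a table and passing under 0.05, and changes are log2 fold changes ± standard error. At St5, 5 of the 10 members were higher in males and 2 lower, where 34.5% and 27.5% of all genes tested were. Traf4 (8.48 ± 0.63), Z600 (6.62 ± 0.70), halo (5.24 ± 0.34), slam (3.64 ± 0.22) and bnk (2.95 ± 0.72) were higher, with a largest adjusted p of 0.00396, and fog (-3.76 ± 0.30) and zld (-2.08 ± 0.25) were lower, with a largest adjusted p of 2.58e-05. With the maternal RNA level as a covariate the count was 3, and since it separates the sexes the share of the difference that goes with sex cannot be told apart from it. At St7, 0 of the 8 members tested passed in each direction (background 0.906% and 5.31%), 1 had an unadjusted p under 0.05, and DESeq2 also called 0. That was fog, at 75.7 ± 11.1 CPM in males (n = 7) and 92.4 ± 11.6 in females (n = 6), with -0.35 ± 0.14 and an adjusted p of 0.200. At St15, 0 of the 5 tested passed (background 0.365% and 0.936%), with 0 at an unadjusted p under 0.05 and 0 by DESeq2.

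What did mof RNAi change in St5 females? Of the 10 members, 5 rose and 0 fell, where 2.24% and 1.80% of all genes did, and the members' median log2 change was 1.78 against 0 over all genes. halo (2.75 ± 0.31, adjusted p = 0.00232), Traf4 (3.56 ± 0.56, adjusted p = 0.00573), Z600 (3.46 ± 0.63, adjusted p = 0.0128), slam (0.93 ± 0.21, adjusted p = 0.0271) and Bro (2.04 ± 0.50, adjusted p = 0.0414) rose, and each lay above both controls in both mof libraries. bnk (2.02 ± 0.74, adjusted p = 0.147) and nullo (1.55 ± 1.48, adjusted p = 0.613) were above both controls too and did not pass. zld stood at 405 ± 49.97 CPM against 732 ± 142 (-0.82 ± 0.30, adjusted p = 0.144, n = 2 each), below both controls without passing.

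The mof females also held more patterning RNA than the control females, 2.36 ± 0.865 against 0.666 ± 0.133 in mean log2 CPM, while maternal RNA was 6.45 ± 0.112 against 6.52 ± 0.249. The part of embryo age in the rises was not tested. halo passed under all 11 alternatives. The count was 2 with the replicate number as a block, and 1, 2 and 1 without control female 1, control female 2 and mof female 2.

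In St5 males 1 member rose and 0 fell, where 6.51% and 7.33% of all genes did. zld was at 212 ± 41.1 CPM against 156 ± 57.3 in controls (0.70 ± 0.21, adjusted p = 0.0459, n = 4 each), with overlap between the groups, and it passed in only 4 of 17 alternatives. halo (0.55 ± 0.21, adjusted p = 0.0924) and Bro (0.96 ± 0.34, adjusted p = 0.0781) did not pass. Without the libraries labelled mof male 1 and 2 zld was 0.73 and did not pass (adjusted p = 0.102), nor did any other member. Without these and control male 3, which stands apart from the other controls, a choice made after seeing the data, Bro (0.88, adjusted p = 0.0282) and nullo (1.03, adjusted p = 0.00500) rose and T48 (-0.82, adjusted p = 0.0418) fell, where 10.5% and 14.6% of all genes rose and fell, and zld did not pass (0.65, adjusted p = 0.0726). Without control male 3 alone, nullo (3.05), Bro (1.30) and fog (0.74) rose and T48 (-1.21) fell, with a largest adjusted p of 0.0481 and a background of 13.4% and 13.7%. The nullo value thus moved with the libraries kept, as control male 3 and the libraries labelled mof male 1 and 2 held most of its RNA. Maternal RNA was 3.34 ± 0.481 in mof males and 2.87 ± 0.280 in control males in mean log2 CPM, and 4 of the 9 maternal genes rose.

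Did the sexes differ in the mof effect at St5? halo was the only member whose effect differed (-2.2 ± 0.36, males less females, adjusted p = 0.0476), where 0.121% of all genes did. It passed in 8 of 20 alternatives and not without the libraries labelled mof male 1 and 2 (-2.42, adjusted p = 0.0882). DESeq2 called 4 members. At St7 the members differing were 0 of 8 tested, as for all genes (0.00%), with 0 at an unadjusted p under 0.05 and 0 by DESeq2, and at St15 they were 0 of 5 tested, where 16.7% of all genes passed, again with 0 at an unadjusted p under 0.05 and 0 by DESeq2.

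**Figure D3:**
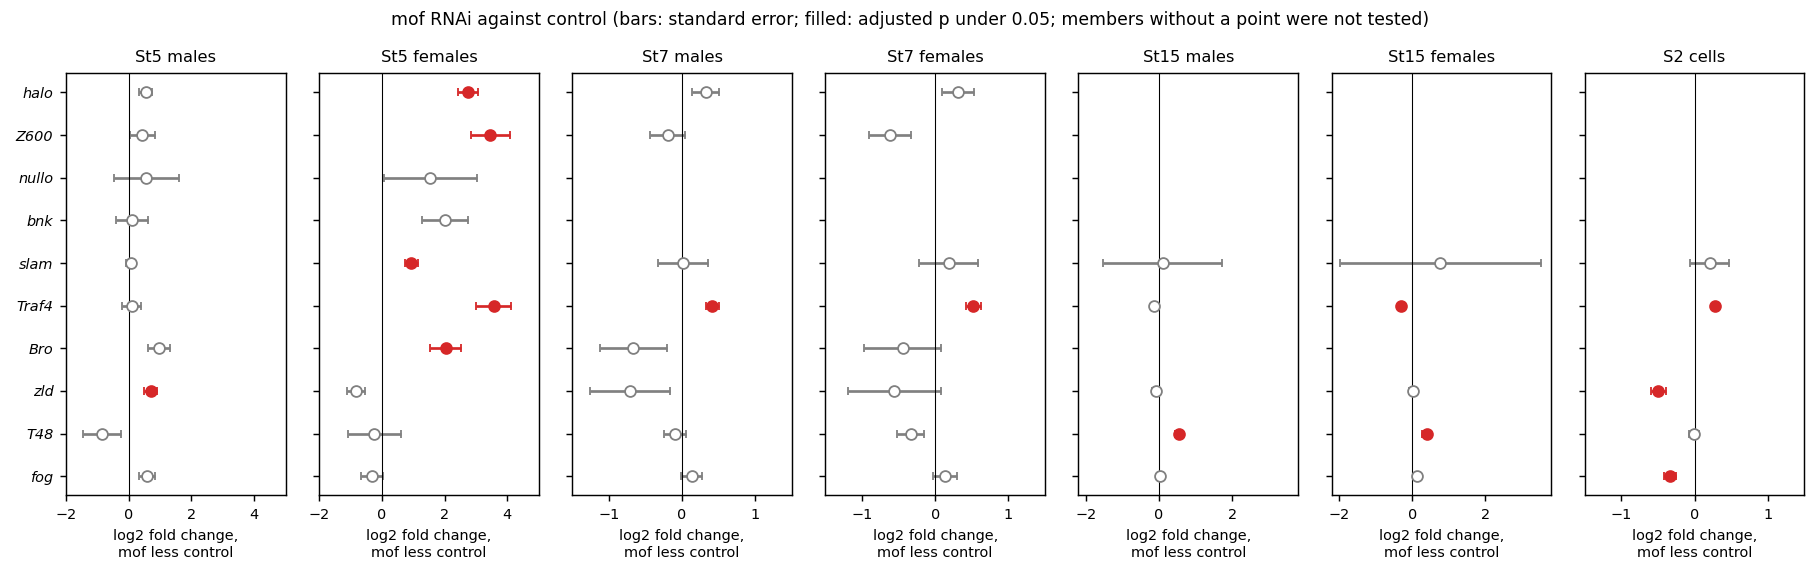
Log2 fold change of each gene, mof RNAi less control, in 7 comparisons, with bars of 1 standard error and filled points where the adjusted p was under 0.05. Axes differ between St5, St7, St15 and S2. Traf4 is filled in St5 and St7 females, St7 males, St15 females and S2 cells, and lies below 0 only at St15.

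At gastrulation Traf4 was the member that rose with mof RNAi, in both sexes. Control males had a lowest, median and highest level of 174, 201 and 247 CPM and mof males 194, 251 and 300 CPM, and the groups overlapped, with mof male 3 below the control median. Control females had 188.5, 200.4 and 227 CPM, and mof females 306, 285, 247 and 264 CPM in replicates 1 to 4, all above every control female. The change was 0.41 ± 0.09 in males (adjusted p = 0.00154) and 0.52 ± 0.10 in females (adjusted p = 0.000657), and it passed under all 20 and all 17 alternatives.

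In males 1 of 8 members tested rose and 0 fell (background 9.93% and 15.3%), and in females 1 of 8 rose and 0 fell (background 11.0% and 16.8%). nullo and bnk had too few counts to be tested. Patterning RNA in mean log2 CPM was 6.51 ± 0.448 in mof against 6.81 ± 0.451 in control males, and 6.26 ± 0.545 against 7.02 ± 0.320 in females. The mof means were lower, and the libraries overlapped in both sexes. Of 11 patterning genes tested, 1 rose and 0 fell in each sex, beside the same background. With the maternal RNA level as a covariate Traf4 was 0.36 in males and 0.41 in females, with adjusted p of 0.000518 and 0.000769. Patterning RNA was not used as a covariate, so its part in the Traf4 rise was not tested. Z600 was 9.16 ± 3.49 CPM in mof females (n = 4) and 14.8 ± 2.72 in control females (n = 6) and did not pass (-0.62 ± 0.28, adjusted p = 0.108), but it did without mof female 4 (-0.84, adjusted p = 0.0441). zld varied so widely among libraries that its interval ran from -1.78 to 0.37 in males and from -1.80 to 0.69 in females.

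**Figure D4:**
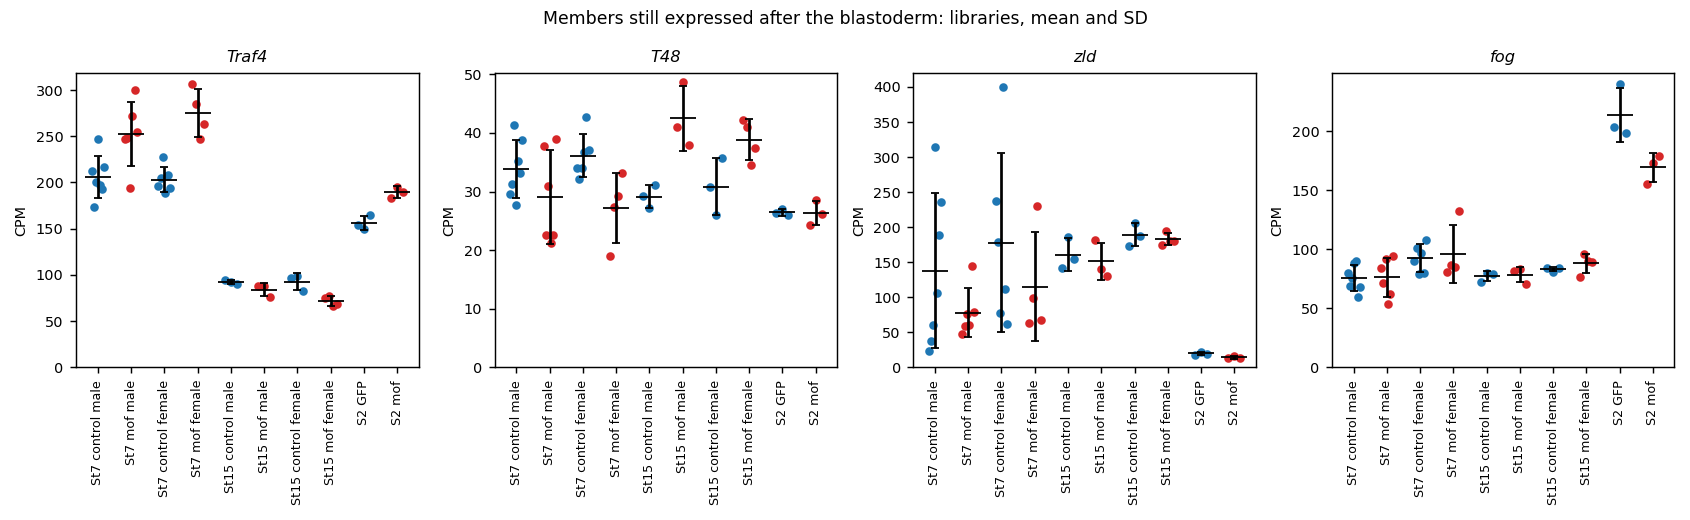
CPM of the 4 members expressed after the blastoderm, in each library (points) with the group mean and SD, by stage, sex and treatment. Traf4 in mof females at St7 lies between 247 and 306, above all control females, and T48 in mof males at St15 lies between 37.9 and 48.7, above all control males.

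At St15, when cellularization is long over, T48 rose. Among males, mof libraries 1, 2 and 4 held 40.98, 48.7 and 37.9 CPM of T48 against 29.2, 27.2 and 31.1 CPM in control males 1, 2 and 4, with no overlap (0.55 ± 0.12, adjusted p = 0.00362). In females it stood at 42.2, 41.05, 34.6 and 37.5 CPM in mof females 1 to 4 against 30.8, 26.1 and 35.7 CPM in control females 2 to 4, with overlap (0.39 ± 0.11, adjusted p = 0.0242). The female call was lost when control female 2 or 3 or mof female 1 or 2 was left out, with values of 0.36, 0.26, 0.33 and 0.35. The male call passed under all 13 alternatives.

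Traf4 fell in St15 females, to 75.2, 77.6, 66.6 and 68.1 CPM in mof females 1 to 4 from 96.9, 98.5 and 82.3 CPM in control females 2 to 4 (-0.30 ± 0.08, adjusted p = 0.0148). The groups did not overlap, and without control female 2 the adjusted p was 0.0513. In males it was 84.0 ± 7.15 CPM against 92.4 ± 2.16 (-0.14 ± 0.09, adjusted p = 0.250, n = 3 each), also without overlap. Of the 5 members tested, 1 rose and 0 fell in males (background 16.0% and 18.2%) and 1 rose and 1 fell in females (background 12.7% and 13.3%). halo, Z600, nullo, bnk and Bro were too low to be tested.

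slam split the St15 pools without regard to treatment. It was at 15.9 CPM in control male 2 and 16.5 CPM in mof male 1, and at 0.0425 to 0.489 CPM in the other 11. The same 2 pools held bcd, an egg transcript, at 21.2 and 17.5 CPM against at most 0.286 in the others, swa at 13.7 and 14.1 CPM, tor at 10.01 and 11.6 CPM and plu at 4.02 and 3.43 CPM. Of the other maternal genes, osk was at 0.503 and 1.16 CPM against at most 0.672 in the others and gnu at 0.201 and 0.0483 CPM against at most 0.34. gcl (147.3 and 176.2 CPM), exu (7.595 and 8.313 CPM) and png (0.4024 and 0.09666 CPM) did not exceed the highest of the other pools either. nullo and bnk had 0 counts in both pools. The part of egg RNA in the slam level was not tested. mof was 38.7 CPM in control male 2 against 18.5 and 18.95 CPM in the other control males. Without these 2 pools T48 was 0.52 and passed, and it was again the only member of 4 tested that did.

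**Figure D5:**
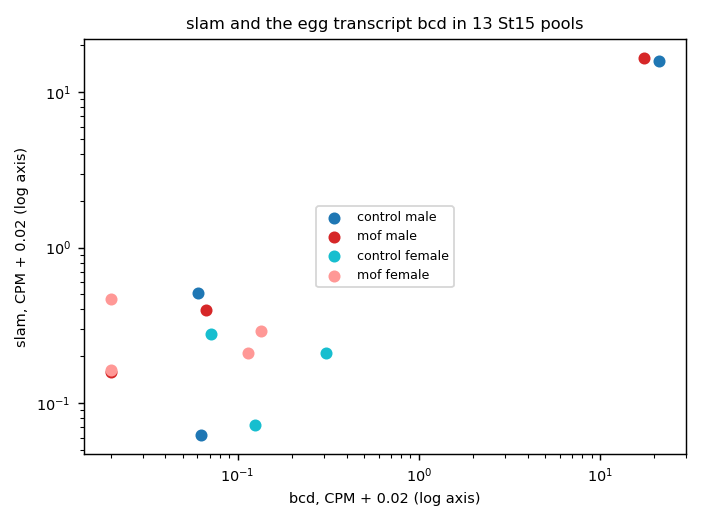
slam against bcd in the 13 St15 pools (CPM plus 0.02, log axes), with groups as colours. Control male 2 and mof male 1 lie together at 15.9 and 16.5 CPM of slam, apart from the other 11 pools.

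In S2 cells mof dsRNA went with changes in 3 of the 5 members tested. Traf4 was at 183, 195 and 190.0 CPM after mof dsRNA and 154, 149.5 and 164.5 CPM after GFP dsRNA (0.28 ± 0.05, adjusted p = 0.00140). zld was at 13.4, 16.0 and 12.6 CPM against 18.2, 21.9 and 19.2 CPM (-0.50 ± 0.10, adjusted p = 0.00574), and fog at 155, 173 and 179 CPM against 203, 240 and 198 CPM (-0.33 ± 0.08, adjusted p = 0.0173). In none of these did the groups overlap. The counts of 1 risen and 2 fallen stand beside a background of 10.2% and 13.2%. zld and fog lie on X and Traf4 on 2L, and X genes were not set apart in this background. The fog call was lost without mof replicate 1 or 2 (adjusted p = 0.0566 and 0.0541). The mof level in this table, given above, did not pass (-0.17 ± 0.16, adjusted p = 0.491). T48 stood at 24.3 to 28.5 CPM, slam at 0.537 to 1.30 CPM, and nullo and bnk had 0 counts in all 6 libraries.

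Genes around the members were read from 5 lists. The shares given beside them are over genes of all chromosomes, and X genes were not set apart. Of 16 other early zygotic genes tested in St5 females, 5 rose and 0 fell, where 2.24% and 1.80% of all genes did, with a median of 1.49 against 0 over all genes: CG13427 (2.90 ± 0.35), CG6885 (2.60 ± 0.31), Elba1 (2.08 ± 0.27), term (1.92 ± 0.27) and trbl (1.38 ± 0.22), with a largest adjusted p of 0.00617. In St5 males 4 of the 16 rose and 0 fell (all genes 6.51% and 7.33%), and between the control sexes 13 were higher in males and 1, sc, was lower (all genes 34.5% and 27.5%). At St7 1 of 15 rose in each sex (all genes 9.93% and 11.0%), trbl (0.47 ± 0.12 in males and 0.49 ± 0.14 in females). trbl, tribbles, slows mitosis by removing String protein.

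Of the 10 genes of the cycle 14 pause list, 5 rose and 1 fell in St7 males, where 9.93% and 15.3% of all genes did, and 5 rose and 0 fell in females, where 11.0% and 16.8% did, with medians of 0.29 and 0.30 against -0.02 and -0.05 over all genes. CycA (0.38 ± 0.06 in males and 0.38 ± 0.07 in females), CycB (0.30 ± 0.07 and 0.38 ± 0.08), stg (0.39 ± 0.09 and 0.32 ± 0.11) and trbl rose in both sexes, with a largest adjusted p of 0.0284. Wee1 also rose in both (0.30 ± 0.09 in males, adjusted p = 0.0211, and 0.36 ± 0.11 in females, adjusted p = 0.0156). CycA and CycB encode mitotic cyclins and stg the phosphatase that starts mitosis, so these drive division, whereas trbl and Wee1 hold it back. twe, the egg's form of that phosphatase, fell in males (-1.16 ± 0.21, adjusted p = 0.000554).

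Of 7 factors of genome activation beside zld, 4 rose in St7 males and 3 in females and 0 fell, where 9.93% and 11.0% of all genes rose. ttk (0.86 ± 0.28 and 1.38 ± 0.32), Trl (0.70 ± 0.19 and 0.58 ± 0.21) and Clamp (0.44 ± 0.08 and 0.47 ± 0.10) rose in males and females, with a largest adjusted p of 0.0465. Trl encodes GAGA factor and Clamp a GA-binding factor that recruits the dosage compensation complex. Between the St5 controls, opa (9.28 ± 1.68) and grh (5.04 ± 0.89) were higher and ttk (-6.06 ± 0.63) and smg (-4.28 ± 0.57) lower in males, with a largest adjusted p of 0.000619.

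The general machinery of cellularization, such as actin regulators and septins, is largely inherited from the egg. Of 18 such genes tested, 6 rose and 0 fell in St7 males (all genes 9.93% and 15.3%) and 3 and 0 in females (all genes 11.0% and 16.8%, so the female count is near that share), with dia, which encodes a formin, in both (0.39 ± 0.12 and 0.39 ± 0.14, with a largest adjusted p of 0.0454). At St15 2 rose and 4 fell in males, near the shares of all genes (16.0% and 18.2%), and arm (-0.78 ± 0.06, adjusted p = 9e-07) and sqh (-0.66 ± 0.06, adjusted p = 2.29e-06) fell most. Whether the falls of arm and sqh go beyond those of X genes in males was not tested. In S2 cells 0 rose and 6 fell (all genes 10.2% and 13.2%), among them baz (-0.39 ± 0.05, adjusted p = 0.000524). In St5 males 2 of 17 rose (all genes 6.51%), led by baz (1.06 ± 0.18, adjusted p = 0.00454).

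The Fog and T48 pathway runs from the fog and T48 products through receptors and G proteins to myosin. At St15, where T48 rose in both sexes, 1 of 11 pathway genes rose and 4 fell in males, where 16.0% and 18.2% of all genes did. The 4 were ric8a (-0.76 ± 0.08), sqh, Rok (-0.57 ± 0.07) and mthl1, the receptor mist (-0.50 ± 0.08), with a largest adjusted p of 0.000479. These 4 falls differed between the sexes by the test of that difference, with a largest adjusted p of 0.0304. That test was passed by 16.7% of all genes. Whether these falls go beyond those of X genes in males was not tested. In S2 cells, where fog fell, 0 of 10 rose and 4 fell (all genes 10.2% and 13.2%), with Rok at -0.28 ± 0.05 (adjusted p = 0.00373). In St7 males 3 of 11 rose and 2 fell (all genes 9.93% and 15.3%), and in St7 females 2 rose and 0 fell (all genes 11.0% and 16.8%). In St5 females twi, the mesoderm factor upstream of T48 and fog, rose (1.44 ± 0.26, adjusted p = 0.0135) and Rok fell (-0.86 ± 0.19, adjusted p = 0.0259).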

How the data were processed

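The 4 deposited tables hold read counts per gene, 1 column per library and no pooling, and were used as counts. Per the submitters' processing notes the build is dm6. Per the labels' protocols libraries were TruSeq Stranded mRNA. Not given in the sources used here are the aligner, the counter, its use of strand and the annotation. Sex at St5 and St7 was called by the submitters from the sequenced RNA, per the labels. At St7, St15 and S2, 17252 of 17558 gene IDs matched Ensembl release 115. In the St5 table, which holds symbols, 12886 matched a current symbol, 3605 a locus tag and 860 a unique synonym, while 207 did not match.

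Each table was fitted alone in edgeR 4.0.16 (R 4.3.3) with TMM scaling, filterByExpr, 1 mean per group and robust quasi-likelihood tests, since stage and table cannot be told apart. p-values were adjusted by Benjamini-Hochberg over every gene tested, with a threshold of 0.05. There were 13 comparisons. Standard errors are the size of the log2 change divided by the root of F, and intervals are 95%. Levels are counts over the library total, per 1000000. Depth limits precision, and floors of 3 counts cover counting error only. p-values measure the spread between these libraries. Same-numbered libraries did not pair the samples by the check used (every correlation of deviations over 0.1 was required), so no block was used. No 2 libraries agreed within sampling noise. The fits were tested on simulated counts with known changes.

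The members and lists were chosen with earlier results of these data known. All members were named, with up to 4 passing genes per list where a list is described (all 5 early zygotic genes in St5 females, and CycB and Wee1 at St7, were named after their values were seen), mof, Sxl and w as checks, and the 5 genes most like the members' mean profile. Alternatives were DESeq2 1.42.0, RLE scaling, no filter, a mean of at least 10 CPM, the replicate block, only the 2 groups compared, a maternal RNA covariate and leaving out libraries. Leaving out control male 3 of St5 with mof males 1 and 2, and 2 St15 pools, was chosen after seeing the data. The maternal order of the St5 libraries was the planned one. The patterning order was planned beside it, and was taken for the plot of St5 levels after both had been seen.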

Additional observations from a re-analysis of the deposited data

Results flagged for a closer look

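Some libraries stood far from the rest of their group, by the gap to the nearest library over the group's range. This was so for 6 of 56 sets, each 1 member in 1 group of 4 to 7 libraries with a mean of at least 1 CPM. Chance gives about 1 in 20 for a single set. The sets share libraries, so the count was not tested against chance. In St5 control male 3, nullo was at 122 CPM and bnk at 1986 CPM, above the other control males. In the St5 library labelled mof male 2, Z600 was at 861 CPM, below the other mof males. Among St7 libraries, Z600 was low in control male 4 (6.289 CPM), fog was high in mof female 4 (132.3 CPM) and zld was high in mof male 5 (144.7 CPM).

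The halo change with mof RNAi at St5 differed between the sexes by the interaction test, at -2.2 in log2, males less females. The female groups hold 2 libraries each, and labels of 2 of the mof males are in doubt.

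Outside the members, 39 counts of Y-linked genes were found in the St15 library labelled mof female 3, where the control females of that table held no more than 1.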

How the results depend on the processing

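Of 1635 member values under the alternatives, 1550 stayed on the same side of the threshold, 53 lost and 31 gained the call, and 1 changed sign with a call. That was nullo between St5 control sexes, at 13.8 with the maternal covariate against -1.10. The 1550 include 95 that changed sign and passed in neither setting. Of 217 counts of members, 177 stayed within 1.5 times. For each change the cause was not tested, except that leaving out libraries also lowers n.

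The count in St5 males (1) was 0 with RLE scaling, at 10 CPM or more, with only the 2 groups, with the maternal covariate and without mof males 1 and 2, and 3 without these and control male 3. Between St5 control sexes (7) it was 3 with the covariate. For the St5 sex difference in the mof effect (1) it was 4 with DESeq2, 2 with no filter, 0 at 10 CPM or more, 0 without mof males 1 and 2, and 4 without these and control male 3. Under the replicate block the counts were 0 in St5 males, 2 in St5 females (5 without it) and 0 for that sex difference, and no other count moved by over 1.5 times. No comparison met the pairing check. In St15 males each number correlated best with itself, at 0.0918 to 0.152. mof and control females of St5 correlated at -0.148 within a number.

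Leaving out 1 library gave 0 to 4 members in St5 males, 1 to 5 in St5 females, 1 to 2 in St7 females, 0 to 2 in St15 females and 0 to 4 for the St5 sex difference. At St7, with a depth of 5.5 to 10.02 in units of 1000000 counts, nullo and bnk did not pass the low count filter.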
